A study of Homo sapiens with 4 samples.

Results

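FOXK2 binding at the HOX genes was examined in OVCAR5 cells by ChIP-seq. The HOX peaks were those that the deposited annotation assigned, by the nearest transcription start site (TSS), to a gene symbol made of HOXA, HOXB, HOXC or HOXD and a number. There were 7 such peaks among 12471 in replicate 1 and 15 among 27281 in replicate 2. They fell to 9 of the 39 human HOX genes. OVCAR5 is an ovarian cancer cell line from ascites, labelled high grade serous, here at passage 4 to 6, with no treatment given in the labels. Chromatin was immunoprecipitated with an antibody to FOXK2 in 2 biological replicates, and both samples are the same cells in the same condition. The 2 input samples were not analysed here, so there is no comparison between conditions and no signal over input. A peak list holds no measure of cell identity, so the cell type could not be checked against its markers.

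FOXK2 is a forkhead transcription factor that binds DNA at sites built around TGTTTAC. HOX genes encode homeodomain transcription factors that give cells their position along the body axis. In humans they lie in 4 clusters, and within a cluster the order of the genes follows the order in which they are used from head to tail. In the female reproductive tract, HOXA9, HOXA10, HOXA11 and HOXA13 are known for patterning the oviduct, uterus, cervix and vagina. Polycomb and Trithorax proteins keep the clusters silent or active, and PBX and MEIS proteins bind DNA together with HOX proteins.

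Sequences are given first for the exact TGTTTAC copies inside HOX peaks that were found in both replicates. Each is 29 bases of hg38 printed 5′ to 3′ on the strand that reads TGTTTAC, with the heptamer in capitals. The heptamers were at chr7:27115307-27115313 (minus strand) for HOXA3, chr7:27149887-27149893 (plus strand) for HOXA6, chr12:54016693-54016699 (minus strand) for HOXC4 and chr12:54021807-54021813 (plus strand) for HOXC5.
HOXA3: gttttgtgctcTGTTTACagctttggggc
HOXA6: atgacaatcaaTGTTTACatttatgattt
HOXC4: cgcggtcgccaTGTTTACccaattctctc
HOXC5: tgtctgtgagtTGTTTACttgttttgtct
The heptamer was the same in all 4 by construction of the search, and each copy lay inside the peak of both replicates. Relative to the centre of the peak, the HOXA3 copy lay at 8 bp (replicate 1) and 12 bp (replicate 2). The HOXC5 copy lay at 20 bp and 22 bp, and the HOXA6 copy at 37 bp and 17 bp. The HOXC4 copy lay at -75 bp in replicate 1 but at 8 bp in replicate 2, since the 2 calls of that peak were 83 bp apart.

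The strongest HOX site is also shown whole, as the stretch common to both replicates on the plus strand of hg38, chr7:27115197-27115407, where TGTTTAC reads as its reverse complement in capitals.
HOXA3 main peak: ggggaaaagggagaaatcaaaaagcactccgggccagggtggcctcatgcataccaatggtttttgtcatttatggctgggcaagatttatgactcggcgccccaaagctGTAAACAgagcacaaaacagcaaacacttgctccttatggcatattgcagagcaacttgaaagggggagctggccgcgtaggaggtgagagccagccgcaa
For contrast, the other HOXA3 peak (chr7:27111854-27112064) and the distal HOXB1 peak (chr17:48492683-48492879) held no exact TGTTTAC. Their capitals mark the match to a looser forkhead core, which is a purine, a pyrimidine, AAA, a pyrimidine and A, and of which TGTTTAC is a special case on the opposite strand. Both matches were on the minus strand and are printed on the plus strand.
HOXA3 second peak: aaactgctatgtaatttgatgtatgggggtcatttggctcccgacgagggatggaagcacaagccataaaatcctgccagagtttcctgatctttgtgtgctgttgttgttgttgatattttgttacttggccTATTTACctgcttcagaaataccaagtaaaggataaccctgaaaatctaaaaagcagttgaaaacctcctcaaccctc
HOXB1 distal peak: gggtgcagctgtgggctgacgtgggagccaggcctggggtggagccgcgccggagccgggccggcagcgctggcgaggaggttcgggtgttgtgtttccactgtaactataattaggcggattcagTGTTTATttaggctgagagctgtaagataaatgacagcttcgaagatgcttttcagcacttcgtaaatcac

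By assigned name, HOXA held 3 peaks in replicate 1 and 9 in replicate 2, HOXB held 2 and 3, HOXC held 2 and 2, and HOXD held 0 and 1. Of the 9 HOXA peaks of replicate 2, 6 lay outside the cluster, and no peak of replicate 1 overlapped them. Counted by position, with peaks assigned to other genes included, the clusters held 3, 2, 3 and 0 peaks in replicate 1 and 4, 4, 3 and 1 in replicate 2, in the order HOXA, HOXB, HOXC and HOXD, so HOXA no longer stood above HOXB in replicate 2. Each of the 7 peaks in replicate 1 shared 1 bp or more with a peak called in replicate 2 (100%, with a 95% interval by Wilson's method of 64.6% to 100%, which, like all intervals here, covers counting error only), against 74.9% of all replicate 1 peaks. Of the 15 peaks of replicate 2, 7 were overlapped (46.7%, 24.8% to 69.9%), against 34.2% of all replicate 2 peaks. Both background shares lie within the intervals of the HOX shares, so no difference in recovery was detectable with so few peaks. The 7 shared peaks divided into 3 in HOXA, 2 in HOXB, 2 in HOXC and 0 in HOXD. With 2 samples of the same condition, no test between clusters was made.

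**Figure D1:**
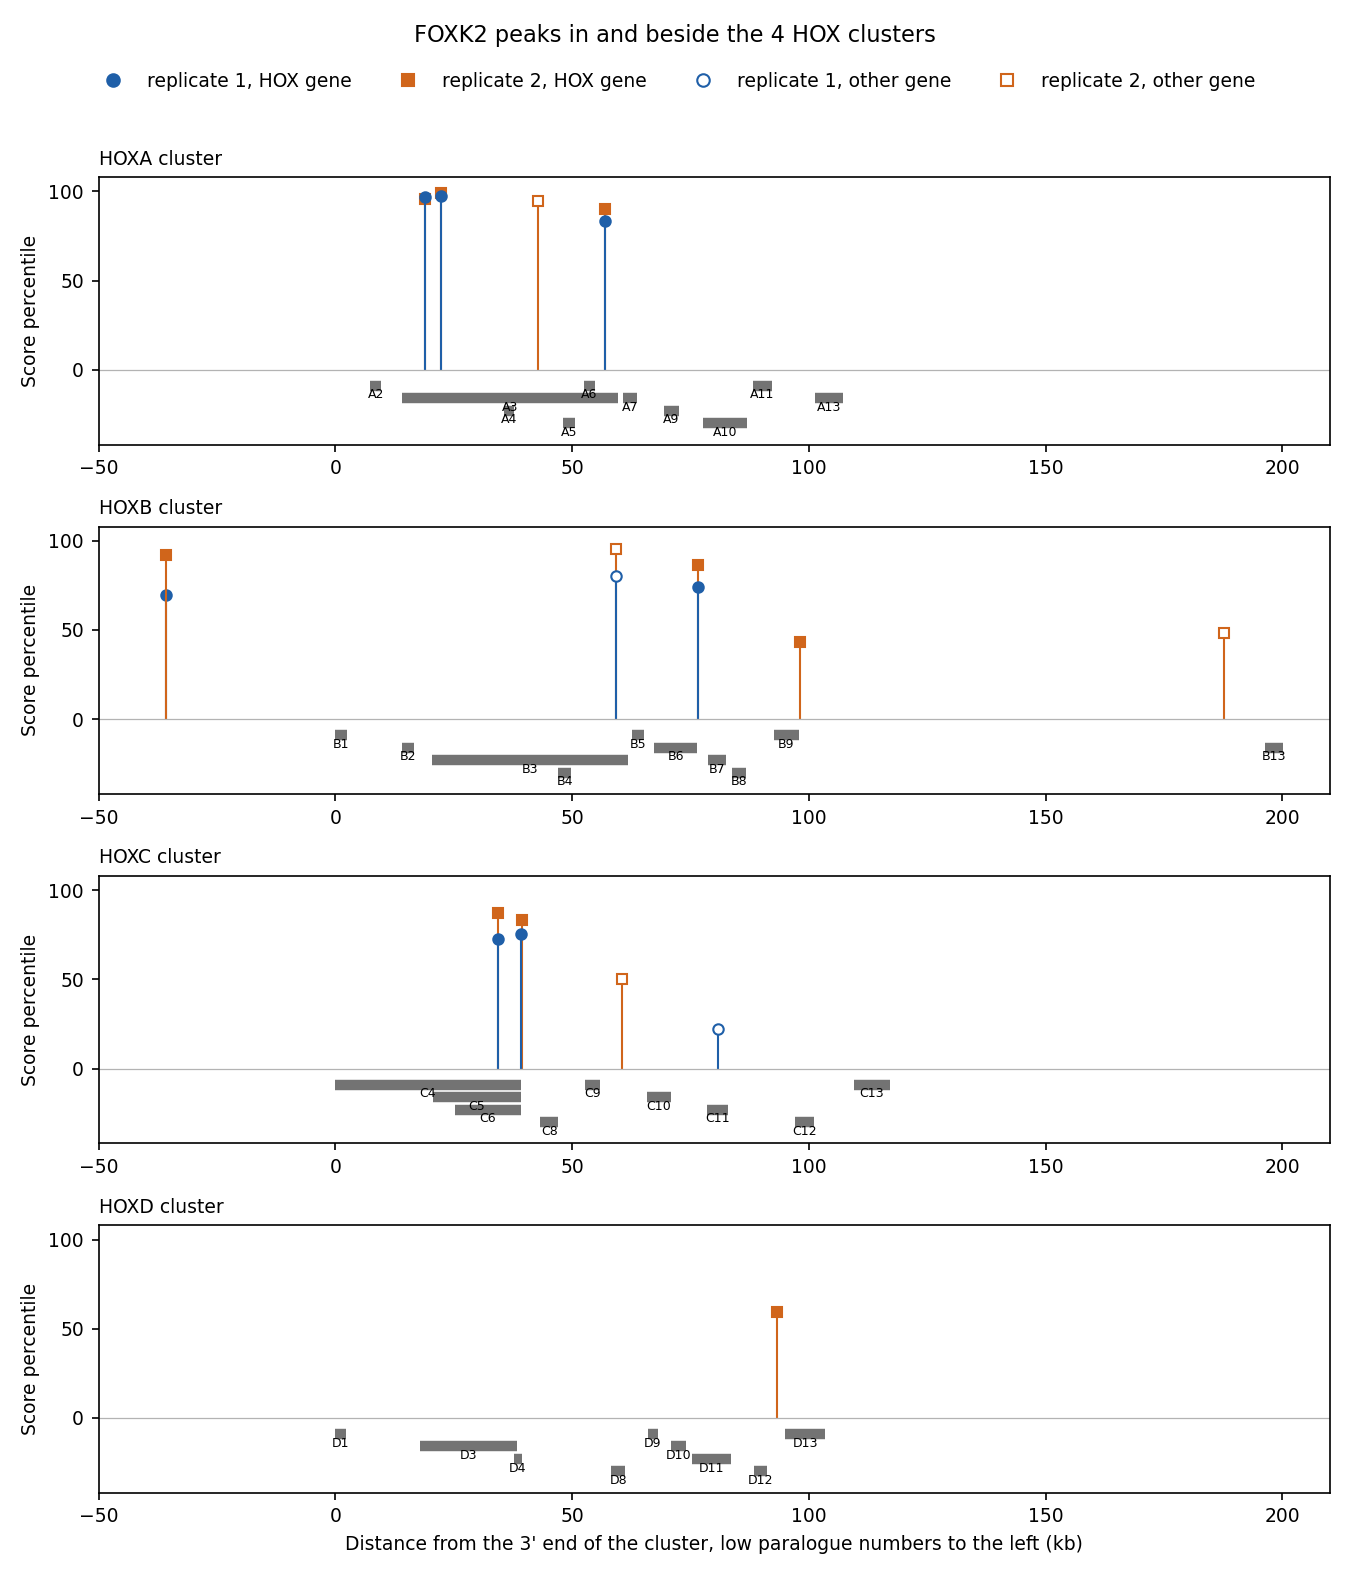
FOXK2 peaks in and beside the 4 HOX clusters, with distance in kb from the end of the cluster that holds the low paralogue numbers on the x axis and the percentile of the peak score within its own list on the y axis; circles are replicate 1, squares replicate 2, filled symbols are assigned to a HOX gene, open symbols inside a cluster to another gene, and grey bars are RefSeq gene spans; not every gene and replicate 2 peak of HOXA is drawn. Circles and squares coincide at 3 places in HOXA, 3 in HOXB (1 of them open) and 2 in HOXC, while HOXD has 1 square.

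Counted by gene, 6 HOX genes had a peak in replicate 1, namely HOXA3, HOXA6, HOXB1, HOXB6, HOXC4 and HOXC5. The same 6 had a peak in replicate 2, and HOXB9 and HOXD12 were among the genes added there. HOX genes with a peak thus made up 15.4% in replicate 1 (Wilson 95% interval 7.25% to 29.7%), against 31.3% of 20052 protein-coding genes, and 23.1% in replicate 2 (12.65% to 38.3%), against 51.7%. In both replicates together the share was 15.4%, against 28.6% of protein-coding genes. For both replicates together the background lies inside the HOX interval, while in each list alone it lies above it.

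The spacing of the genes moves with this count. The stretch of genome nearer to a gene's start than to that of any other protein-coding gene in GENCODE had a median of 11020 bp for the 39 HOX genes, against 59780 bp over 19961 protein-coding genes. The part of this spacing in the lower share was not tested. Counted by length, peaks were denser inside the clusters than in the genome as a whole, at 1.53 per 100 kb against 0.404 in replicate 1 and 2.30 against 0.883 in replicate 2. HOXA was the densest in both, at 2.80 and 3.73 per 100 kb, and HOXC had 2.56 per 100 kb in each replicate. HOXB had 0.999 and 2.00 per 100 kb, and HOXD had 0 and 1.02. These densities rest on 0 to 4 peaks in a cluster. The genome figure is over all 3088269832 bp, gene-poor stretches included. No other stretch as rich in genes was compared, so the higher density cannot be called particular to the HOX clusters.

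By assigned name, HOX genes without a peak in either list numbered 30. In HOXB they were HOXB2, HOXB3, HOXB4, HOXB5, HOXB7, HOXB8 and HOXB13, in HOXC they were HOXC6, HOXC8, HOXC9, HOXC10, HOXC11, HOXC12 and HOXC13, and in HOXD all but HOXD12. In HOXA they included HOXA9, HOXA10, HOXA11 and HOXA13, the genes of the oviduct, uterus, cervix and vagina. Peaks assigned to other genes nonetheless lay over some of those listed. The shared HOXB-AS3 peak lay over HOXB3, whose start was the nearest in GENCODE (2490 bp and 2520 bp). The HOXC-AS2 peak of replicate 2 lay 59 bp from a HOXC9 start and overlapped an untranslated part of it, and the HOTAIR peak of replicate 1 overlapped an untranslated part of HOXC11. The HOXC-AS2, HOXC4 and HOXC5 peaks also lay within the GENCODE span of HOXC6, and the HOXB9 peak within that of HOXB7.

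By position in the cluster, the genes with a peak in both replicates were anterior or central. No test of the classes was made. Of the 8 anterior genes (paralogue numbers 1 to 3), 2 had a peak in both replicates (25.0%, Wilson 95% interval 7.15% to 59.1%), and of the 15 central genes (4 to 8), 4 had (26.7%, 10.9% to 51.95%). Of the 16 posterior genes (9 to 13), 0 had a peak in both (0%, with an upper Wilson bound of 19.4%), and 2 had a peak in replicate 2. Those 2, HOXB9 and HOXD12, had the lowest and the third lowest score percentile of the 15 HOX peaks in that list. The 28.6% of all protein-coding genes lies inside the anterior and central intervals and above the posterior one. The posterior interval overlaps both of the others. These classes rest on assigned names. They count the HOXB1 peak outside its cluster and leave out the peaks at HOXC9 and HOXC11 given above, each found in 1 replicate. The part of gene spacing in these shares was not tested.

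HOXA3, an anterior gene needed for pharyngeal arch and thymus development, had the strongest HOX peak in both lists. Its main peak scored 18.9 in replicate 1 (rank 331 of 12471, percentile 97.3) and 42.7 in replicate 2 (rank 219 of 27281, percentile 99.2). HOMER scales the score to each library, so a score is read only against its own list. The peak lay at 4293 bp and 4297 bp from the assigned HOXA3 start, in intron 2 of 3 of a HOXA3 transcript. In GENCODE, however, the nearest transcript start was that of HOXA-AS2, a lncRNA read from the opposite strand, at 46 bp and 50 bp from the 2 centres. The assigned HOXA3 name thus stands for a site next to the start of an antisense gene. This is the peak printed above with TGTTTAC near its centre.

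The second HOXA3 peak lay in the same intron, at 7636 bp and 7651 bp from the assigned start. It scored 17.4 (rank 402, percentile 96.7) and 22.9 (rank 1096, percentile 95.95). Its detailed annotation in replicate 1 was a simple repeat of TTG units, which can be seen in the printed sequence, while in replicate 2 it was the intron. The nearest GENCODE start was 1886 bp and 1901 bp away and belonged to another HOXA3 transcript.

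HOXA6, a central gene with a role in axial patterning, had a peak at -2079 bp and -2099 bp. It scored 9.62 (rank 2021, percentile 83.4) and 16.4 (rank 2688, percentile 90.0). With 29.4% G and C in replicate 1 it was the most AT-rich of the 7 shared peaks, against a median of 47.4% over all peaks of that list. A start of HOXA-AS3, another antisense lncRNA, lay 199 bp and 179 bp from its centre in GENCODE. So in HOXA 2 of the 3 shared peaks were closer to an antisense start than to the start of the gene they were assigned to.

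In HOXB, the peak assigned to HOXB1, the gene of hindbrain segment identity, lay far outside the cluster, at 38136 bp and 38099 bp on the 3′ side of the gene. It scored 7.55 (rank 3663, percentile 69.8) and 18.0 (rank 2096, percentile 92.2). It was annotated as intergenic and in a CpG island, with 14 CpG in replicate 1 and 19 in replicate 2, and no GENCODE gene covered its centre. The detailed annotation read CpG island for 1 of 7 HOX peaks in replicate 1 (14.3%, 2.57% to 51.3%), against 2.82% of all peaks. With the HOXD12 peak described further on, it did so for 2 of 15 in replicate 2 (13.3%, 3.74% to 37.9%), against 2.31%. That annotation gives 1 label per peak, so a peak labelled promoter, such as that of HOXB9 with 19 CpG, is not in these counts. HOXB6, a central gene expressed in blood and kidney development, had the only shared HOXB promoter peak, at -182 bp and -135 bp. It scored 8.11 (rank 3127, percentile 74.2) and 14.3 (rank 3679, percentile 86.4), and held neither TGTTTAC nor the looser core. Neither of these HOXB peaks held the exact site, but a further shared peak inside the cluster, assigned to HOXB-AS3 and described with the antisense genes, did.

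In HOXC, both shared peaks lay near a start that HOXC4, HOXC5 and HOXC6 have in common in RefSeq, where all 3 gene spans begin at position 54016888 of chromosome 12. The deposited distances of both peaks are from an assigned start that lies shortly before that position. The HOXC4 peak, annotated as promoter, was at -81 bp and -164 bp from it, and scored 8.30 (rank 2960, percentile 75.6) and 13.1 (rank 4466, percentile 83.4). The HOXC5 peak lay at 4938 bp and 4936 bp, in intron 1 of 3 of a HOXC4 transcript, and scored 7.92 (rank 3303, percentile 72.8) and 14.6 (rank 3516, percentile 87.0). The gene names of these peaks are therefore uncertain, since the same RefSeq start serves 3 genes of the cluster. The HOXC4 peak also overlapped an untranslated part of a HOXC6 transcript in GENCODE. Each peak held 1 exact TGTTTAC. The calls of the HOXC5 peak were 2 bp apart and those of the HOXC4 peak 83 bp apart, the smallest and the largest distance among the 7 pairs, whose median was 20 bp against 29 bp over all 9343 pairs.

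**Figure D2:**
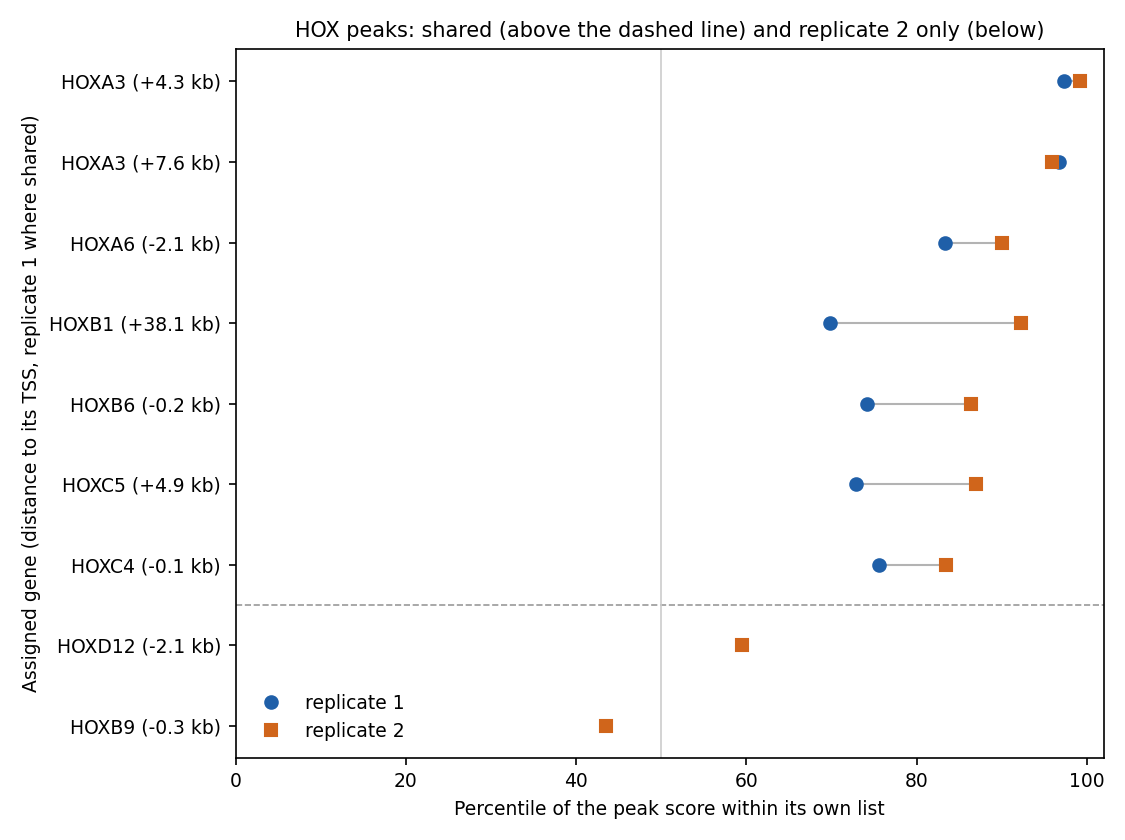
HOX peaks by the gene and the distance to the TSS it was assigned to (y axis) and by the percentile of its score within its own list (x axis), with circles for replicate 1 and squares for replicate 2. The 7 shared peaks, above the dashed line, sit between percentiles 69.8 and 99.2, and the 2 posterior peaks of replicate 2 alone at 43.5 and 59.5; the other peaks of replicate 2 alone are not drawn.

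The HOX peaks stood in the higher-scoring part of both lists. In replicate 1 the lowest HOX percentile was 69.8, the median 75.6 and the highest 97.3, and in replicate 2 these were 43.5, 83.4 and 99.2, where the medians over all peaks were 49.1 and 49.99. Percentiles from lists of such unequal length are not compared between replicates, since a longer list with more weak peaks raises the percentile of a given peak. All 7 peaks of replicate 1 and 14 of 15 in replicate 2 had at least the median score of their list, as did 52.5% and 50.7% of all peaks. In the top decile of scores were 2 of 7 and 4 of 15 HOX peaks, against 10.1% of all peaks in each list. Scores moved in equal steps within a list, and if a step is 1 tag, the HOX peaks held 40 to 100 tags in replicate 1 and 45 to 287 in replicate 2, where the weakest peaks of the lists held 16 and 21.

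The 8 HOX peaks found in replicate 2 alone had percentiles from 43.5 to 84.2, with a median of 65.5. Of these, 6 were the HOXA peaks outside the cluster, all intergenic, and 2 were near the starts of posterior genes. HOXB9 had a promoter peak at -260 bp (score 6.69, percentile 43.5), with 72.4% G and C. HOXD12, a gene of limb and genital patterning, had a peak at -2111 bp (score 8.33, percentile 59.5) in a CpG island, with 67.3% G and C and 21 CpG. These were the 2 highest G and C contents among the HOX peaks of that list, whose median was 43.97% against 45.9% over all replicate 2 peaks. Neither held TGTTTAC. The HOXD12 peak lay between HOXD12 and HOXD13 and was the only one in the HOXD cluster in either list.

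Within 100 bp of the peak centre, TGTTTAC on either strand was present in 4 of 7 HOX peaks in replicate 1 (57.1%, Wilson 95% interval 25.05% to 84.2%), against 30.5% of all peaks. In replicate 2 it was in 5 of 15 (33.3%, 15.2% to 58.3%), against 28.2%. All peaks with the site in replicate 1 were those printed above, and replicate 2 added 1 more peak. The looser core was in 6 of 7 (85.7%, 48.7% to 97.4%) and 10 of 15 (66.7%, 41.7% to 84.8%), against 57.9% and 56.9%. Since every background share lies inside the HOX interval, no difference in site content was detectable. The AP-1 site, TGACTCA or TGAGTCA on either strand, was in 0 of 7 and 0 of 15 HOX peaks, which allows shares of up to 42.9% and 20.0% at 3 counts, against 16.4% and 16.6% of all peaks.

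**Figure D3:**
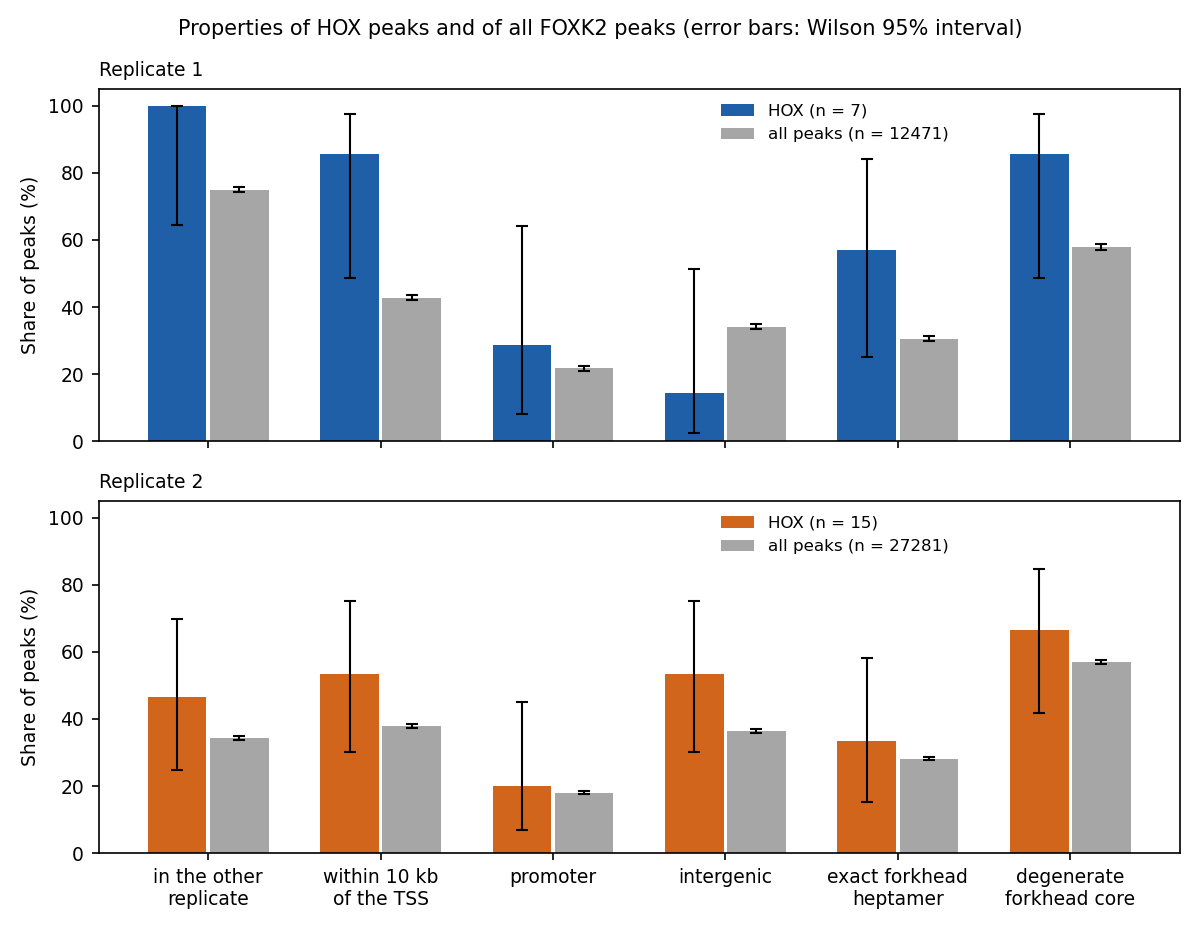
Share of HOX peaks (coloured) and of all peaks (grey) with each property on the y axis, in percent, for replicate 1 (upper) and replicate 2 (lower), with Wilson 95% intervals as error bars. The HOX bars rest on 7 and 15 peaks, and the intervals of overlap, promoter and site shares include the grey bars, while the share within 10000 bp of the TSS in replicate 1 does not (85.7% against 42.8%).

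Most copies of the heptamer in the clusters lay outside the called peaks. The 4 clusters, each taken from its first to its last HOX gene in GENCODE, covered 522711 bp. Together they held 62 copies of TGTTTAC, or 11.9 per 100 kb against 15.5 in the genome. Inside a peak lay 5 of the 62 in replicate 1 and 6 in replicate 2, with 5 in both (8.06%, against 0.702% of 478177 copies in the genome). No interval was computed for this share. Peaks of any kind were also denser in the clusters than in the genome, as given above, and the part of this in the share was not tested. HOXA had 2 of its 16 copies in peaks of both replicates, HOXC 2 of 12, HOXB 1 of 22 and HOXD 0 of 12. HOXD thus held as many copies as HOXC, and none of them lay in a peak. The RefSeq promoter table matched 20 of the 39 HOX genes. Among their 27 windows (250 bp before to 50 bp after a start, GRCh38.p14), 2 held TGTTTAC on either strand (7.41%, against 3.42% of 35116 windows). Both are the same window, listed for HOXC4 and HOXC5, and the copy in it is the HOXC4 site printed above.

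Within 10000 bp of the assigned TSS lay 6 of 7 (85.7%, 48.7% to 97.4%), against 42.8% of all peaks, and in replicate 2 8 of 15 (53.3%, 30.1% to 75.2%), against 37.9%. Promoter peaks were 2 of 7 (28.6%, 8.22% to 64.1%) and 3 of 15 (20.0%, 7.05% to 45.2%), against 21.7% and 18% of all peaks. Intergenic peaks were 1 of 7 (14.3%, 2.57% to 51.3%) and 8 of 15 (53.3%, 30.1% to 75.2%), against 34.1% and 36.5%. The spacing of the genes given above also moves with the distance to the TSS, and its part was not tested. The gene assigned to a peak was also that of the nearest GENCODE start for 3 of 7 HOX peaks in replicate 1 and 5 of 15 in replicate 2, against 53.1% and 50.7% of all peaks.

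The assigned name also left out peaks inside the clusters. Of 26 antisense, microRNA and PRAC genes of the clusters, 2 had a peak in replicate 1, 4 in replicate 2 and 1, HOXB-AS3, in both (3.85%, 0.682% to 18.9%, beside 28.6% of protein-coding genes, which these mostly noncoding genes are not). The HOXB-AS3 peak scored 9.05 (percentile 80.5) in replicate 1 and 21.3 (percentile 95.2) in replicate 2, and held TGTTTAC at chr17:48587739-48587745 (plus strand), within 27 bp of both centres.
HOXB-AS3: gctggctttccTGTTTACacttctttata
This peak lay at -2675 bp and -2705 bp from its assigned start, over both HOXB-AS3 and HOXB3 in GENCODE, and the nearest GENCODE start was that of HOXB3. It was the strongest peak inside HOXB in both lists. HOTAIR, a lncRNA of HOXC known for its link with Polycomb proteins, had a promoter peak in replicate 1 alone (score 4.53, percentile 21.9), at the TSS distance of -355 bp and within the HOXC11 gene, whose untranslated part it overlapped. Replicate 2 alone had peaks for HOXA-AS3 (score 20.4, percentile 94.5), HOXC-AS2 (score 7.29, percentile 49.99) and PRAC1 (score 7.14, percentile 48.5). With these counted, 8 peaks of replicate 1 and 12 of replicate 2 lay inside the 4 clusters, and 7 of each were shared.

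Genes beside the clusters also had peaks. Of 14 flanking genes, 6 had a peak in both replicates (42.9%, 21.4% to 67.4%), beside 28.6% of protein-coding genes. HIBADH, an enzyme of valine breakdown beyond the HOXA cluster, had a promoter peak at -142 bp and -132 bp (ranks 7 and 6, percentiles 99.95 and 99.98), above every HOX peak. SKAP2 had a shared peak at -45740 bp and -45710 bp (percentiles 90.6 and 97.3), CALCOCO2, an autophagy receptor gene beyond HOXB, had one at its promoter (84.2 and 93.7), and LNPK had a remote one at 395677 bp and 395695 bp (76.9 and 69.9). The interval of the flanking genes overlaps that of the HOX genes.

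Among proteins that act with HOX proteins or on HOX genes, peaks in both replicates were assigned to 5 of 9 cofactor genes of the TALE homeodomain family (55.6%, 26.7% to 81.1%). The 28.6% of all protein-coding genes lies inside this interval. Percentiles in replicate 1 and replicate 2 were 64.0 and 80.2 for MEIS2 and 54.9 and 82.2 for PBX3. For PKNOX1, whose peak was at the promoter (-378 bp and -379 bp), they were 26.7 and 81.7. Of 29 Polycomb and Trithorax genes, 14 had a peak in both (48.3%, 31.4% to 65.6%), an interval that starts above the 28.6% of all protein-coding genes. In 13 of these 14 genes the peaks of the 2 replicates overlapped, and no interval was computed for that lower count. The best were EZH1, a histone H3 lysine methyltransferase, at 112 bp and 106 bp (ranks 42 and 45), and the chromobox gene CBX7 at 6855 bp and 6864 bp (ranks 89 and 48). CBX8 (ranks 138 and 181) and PHC2 (ranks 273 and 299) followed. EZH1, CBX7 and CBX8 ranked above the main HOXA3 peak in both lists, and PHC2 above it in replicate 1 and below it in replicate 2. Of 13 retinoid, CDX and CTCF genes, 7 had a peak in both (53.8%, 29.1% to 76.8%, beside 28.6% of all protein-coding genes), and in 4 of these the peaks overlapped. RXRB, a retinoid X receptor gene, ranked 188 and 131 at its promoter. CYP26B1 and CYP26A1 encode enzymes that break down retinoic acid. In replicate 1 and replicate 2, CYP26B1 had percentiles of 92.9 and 95.4, CYP26A1 64.0 and 81.7, and RXRA 30.8 and 83.4.

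For comparison, 20 of 45 forkhead genes (44.4%, 30.9% to 58.8%) and 29 of 122 homeobox genes outside the HOX clusters (23.8%, 17.1% to 32.05%) had a peak in both replicates. The 28.6% of all protein-coding genes lies below the forkhead interval and inside that of the other homeobox genes. The interval for forkhead genes starts above the upper bound for HOX genes (30.9% against 29.7%), while that for other homeobox genes overlaps it. That gap is narrow. The peaks of the 2 replicates overlapped in 19 of the 20 forkhead genes and in each such HOX gene. For overlapped peaks alone a separation from the HOX genes was not shown. Genes of a family are not replicates, and their members were chosen with results of these data known, so the intervals describe counting error alone.

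**Figure D4:**
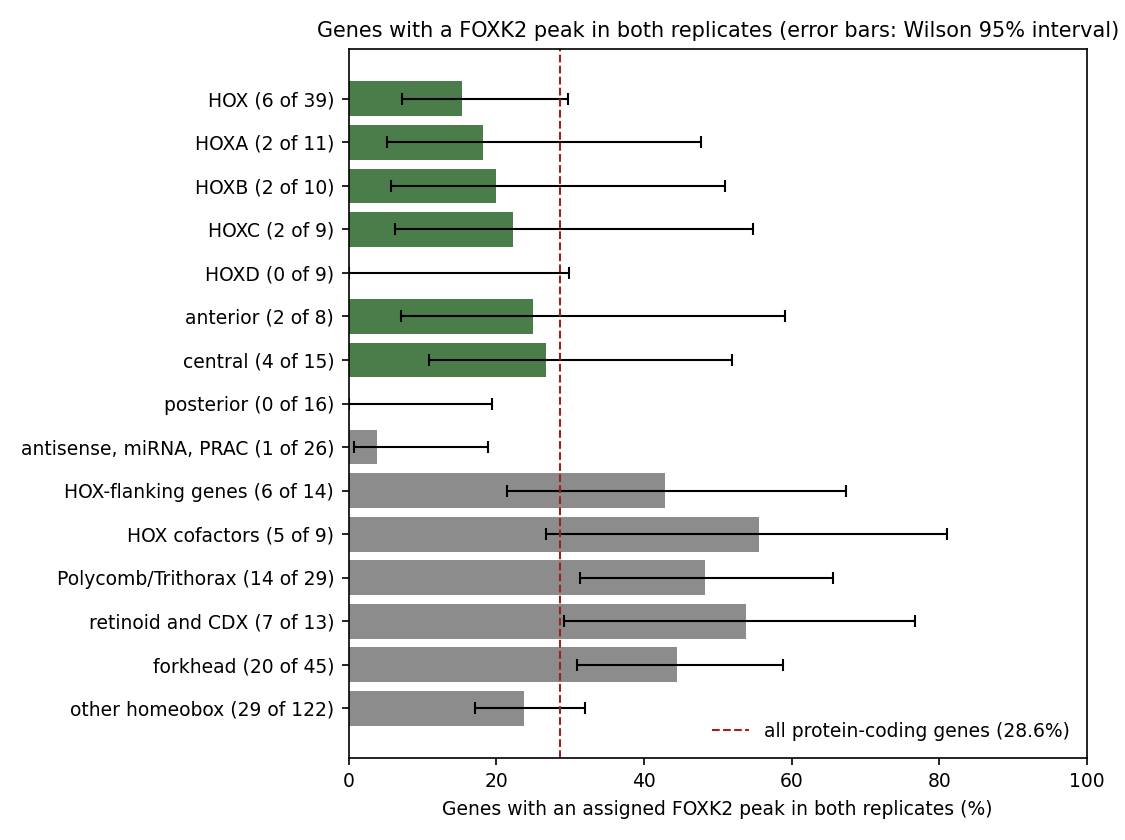
Percent of genes with an assigned FOXK2 peak in both replicates (x axis) for the HOX genes, each cluster and each positional class (green) and for the other gene lists (grey), with Wilson 95% intervals; the dashed line marks 28.6%, the share of all protein-coding genes. HOXD and the posterior class are at 0 of 9 and 0 of 16, and HOXA, HOXB and HOXC lie between 18.2% and 22.2%.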

How the data were processed

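The 2 FOXK2 peak lists were analysed out of 4 samples, which include 2 inputs. The authors mapped single-end reads to hg38 with Bowtie2 2.2.6 and called and annotated peaks with HOMER 4.10 in each replicate, per the study's methods, the submitters' processing notes and the file headers. Whether input was used in calling is not given in the sources used here. The deposited peak score is scaled by HOMER to 10000000 tags by default and was ranked within its own list, with tied scores averaged in percentiles. The deposited focus ratio, a fraction of tags on the expected side of the centre, was not used in any comparison. All deposited peaks were kept. At a step of 0.189 and 0.149, the weakest peaks hold 16 and 21 tags if 1 step is 1 tag.

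HOX members and gene lists were chosen with earlier results of these data known. Shares carry Wilson 95% intervals, with no test between clusters. For sites found in 0 peaks the limit given is 3 counts of the total, and for groups with 0 genes it is the upper Wilson bound. Motifs were searched within 100 bp of the peak centre in hg38. Positions were compared with GENCODE release 44. Named genes were the HOX genes with an assigned peak, the 3 strongest found in 1 replicate, HOX genes without a peak, and up to 4 per other list by mean percentile. Some items that this rule names are not reported here, though counts include them. Peaks of antisense and PRAC genes, other than HOXB-AS3, were named after their values were seen. The alternatives were higher-scoring peaks, equal list length, a stricter overlap, limits on the TSS distance, promoter peaks, cluster spans, other motifs and windows, and leaving out each replicate. Those with the AP-1 site and the nearest GENCODE start were added after seeing the data. Overlap and motif steps, tested on 2 simulated sets each, differed from the known answer by 0. Python 3.11.15, numpy 2.4.6, pandas 2.3.3, scipy 1.17.1, pysam 0.24.0, matplotlib 3.10.9 and samtools 1.23.1 were used.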

Additional observations from a re-analysis of the deposited data

How the results depend on the processing

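No paired analysis was possible because only FOXK2 samples, all of 1 group, were analysed here. Of 114 alternative values, 94 stayed within the limits set for them, 20 moved and 0 reversed. Some of the 94 could not move. Replicate 1 has the shorter list, so equal list length could not change its HOX peak counts. All 7 HOX peaks of replicate 1 were among its higher-scoring peaks, so keeping those alone dropped none. The values are counts, shares and percentiles, which have no sign to reverse. The tally is therefore not a measure of how robust the results are. With only peaks within 10000 bp of the TSS, HOX peaks in replicate 2 numbered 8, with 3 in HOXA, the share found in both replicates was 75.0%, and HOXB had 1 peak in replicate 1. With promoter peaks only, replicate 1 had 2 HOX peaks in 2 genes (0 in HOXA, 1 in HOXB, 1 in HOXC), replicate 2 had 3 peaks in 3 genes (0 in HOXA, 1 in HOXC, 0 in HOXD), and 2 genes had a peak in both. With all peaks inside the cluster spans, HOXA had 4 peaks in replicate 2. These 3 settings keep fewer or other peaks by construction, and under the last HOXA and HOXB held equal numbers of peaks in replicate 2. The site share was 85.7% and 66.7% with the looser forkhead core and 0% in both replicates with the AP-1 site. HOX genes with a peak numbered 6 to 9 when each replicate was left out, and 4, 7 and 4 in replicate 1, replicate 2 and both by the nearest GENCODE start. With 7 and 15 peaks, shares are known only within wide intervals, and 2 replicates leave their spread poorly known.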
